A study of Mus musculus with 12 samples.

Results

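The 10 immediate early transcription factors Fos, Fosb, Fosl1, Jun, Junb, Egr1, Egr2, Egr3, Atf3 and Myc were followed in mouse cecum through 72 h after cautery of its wall. They were found by gene name on the array and had 16 of its 56605 probes, that is 10 of 37074 named genes. Ceca of male C57BL/6 mice were cauterized with bipolar forceps and taken after 3 h, 12 h or 72 h, and control ceca came from sham-operated mice. Each of the 4 groups held 3 arrays, biological triplicates per the methods, and none is labelled with a transgene, a deletion or a drug. The methods place the sham tissue at 0 h after surgery, while the wording of the labels leaves room for sham tissue of the later times. At 0 h, cautery, anaesthesia, laparotomy and elapsed time cannot be told apart in a comparison with sham. RNA came from cecum tissue of mixed cell types, where fewer cells of a type and less RNA per cell cannot be told apart.

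Immediate early genes are transcribed within minutes of a stimulus, because the factors that switch them on, among them SRF with its TCF partners and CREB, are already in the cell and need only be phosphorylated. Many of their products are transcription factors in turn. FOS and JUN proteins pair to form AP-1, which binds promoters of cytokine, protease and cell cycle genes, EGR proteins are zinc finger factors that bind GC-rich sites, ATF3 is a stress-induced partner and brake of AP-1, and MYC drives ribosome production and growth. In injured gut and serosa they are known as early markers of wounding. The earliest tissue after cautery was taken at 3 h, so a rise and fall before then was not measured.

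Promoters of 6 of the 10 members (Fos, Fosb, Jun, Junb, Egr2 and Atf3) were held by RefSeq's GRCm38.p6 table. In the whole table of 32851 promoters, 300 bases each, 5 motifs were searched on both strands: the CArG box that SRF binds, in 1.63% of promoters, the cAMP response element TGACGTCA, in 1.79%, the AP-1 element TGAGTCA, in 5.2%, the EGR element GCGNGGGCG, in 5.55%, and the E-box CACGTG, in 7.15%. No match overlapped another in the 6 genes. Egr2, with 5 listed starts, and Fosb held a match. The 250 bases upstream of the start are given 5′ to 3′ for these genes, and for Fos and Atf3 as called members of the AP-1 family in which none of the 5 motifs was found, with the matched letters in capitals.
Egr2 (CArG box in capitals, chr10:67537680-67537929, + strand): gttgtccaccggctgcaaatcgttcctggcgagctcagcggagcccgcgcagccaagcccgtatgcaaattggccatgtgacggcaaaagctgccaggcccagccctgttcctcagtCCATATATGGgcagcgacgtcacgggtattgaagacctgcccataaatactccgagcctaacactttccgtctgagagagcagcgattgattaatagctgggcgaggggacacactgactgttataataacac
Fosb (EGR element in capitals, chr7:19310046-19310295, - strand): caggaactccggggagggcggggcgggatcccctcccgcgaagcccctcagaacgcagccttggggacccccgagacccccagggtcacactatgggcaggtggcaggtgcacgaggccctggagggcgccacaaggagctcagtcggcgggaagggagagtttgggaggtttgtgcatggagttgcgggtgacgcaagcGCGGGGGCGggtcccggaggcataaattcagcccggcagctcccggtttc
Fos (no match, chr12:85473640-85473889, + strand): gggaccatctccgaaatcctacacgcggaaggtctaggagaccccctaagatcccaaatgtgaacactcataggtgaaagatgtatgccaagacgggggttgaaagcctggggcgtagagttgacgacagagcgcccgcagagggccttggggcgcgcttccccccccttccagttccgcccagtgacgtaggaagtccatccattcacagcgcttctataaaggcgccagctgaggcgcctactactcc
Atf3 (no match, chr1:191183334-191183583, - strand): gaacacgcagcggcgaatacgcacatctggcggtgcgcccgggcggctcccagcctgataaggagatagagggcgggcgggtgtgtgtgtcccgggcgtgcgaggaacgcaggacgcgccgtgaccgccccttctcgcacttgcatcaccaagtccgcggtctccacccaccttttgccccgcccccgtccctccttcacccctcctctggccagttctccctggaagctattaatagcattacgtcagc
The Egr2 CArG box began 133 bases upstream of the start shown and lay 72 and 73 bases upstream of the neighbouring listed starts. A separate CArG box lay 72 bases upstream of the start listed at chr10:67537316-67537615, and the start farthest upstream had an E-box 27 bases before it. The EGR element of Fosb began 50 bases upstream of its start. A match is a run of letters and not a measured binding site, and no match says only that these letters are not in this window.

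The arrays read each transcript through probes of 60 bases, whose positions the deposited files give on mm9. 15 of the 16 were designed on RefSeq mRNAs and 1 Junb probe on a cDNA clone. The brightest FOS and JUN probes lay at chr12:86818118-86818177 (+ strand) for Fos, chr7:19888168-19888227 (−) for Fosb and chr19:5455496-5455555 (+) for Fosl1. Those of Jun and Junb lay at chr4:94716928-94716987 (−) and chr8:87500843-87500902 (−). Egr2 was read at chr10:67004758-67004817 (+), Egr3 at chr14:70482361-70482420 (+), Atf3 at chr1:192994547-192994606 (−) and Myc at chr15:61821417-61821476 (+). These mm9 positions cannot be set beside the GRCm38.p6 promoters, and the exon each falls in was not analysed here.

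Levels are given as log2 of the deposited processed intensity minus that array's 75th percentile, so that 1 unit is a doubling and 0 is the level that 75% of probes stay under. A gene with several probes is represented by the brightest, with the others beside it. A gene was called where the fold change exceeded 2 and the Benjamini-Hochberg adjusted p of limma, over all 56605 probes, was below 0.05. At 3 h after cautery 8 of the 10 factors were called higher and 0 lower, against 3.26% of all genes higher and 4.11% lower. At 12 h 6 were called higher and 0 lower (background 4.1% and 4.96%), and at 72 h 5 higher and 0 lower (4.55% and 4.3%). The median log2 differences of the 10 from sham were 1.76, 1.34 and 0.67 at the successive times, beside medians over all genes of 0.08, −0.01 and −0.14. Over all 16 probes, 10, 8 and 6 were called higher at the 3 times and 0 lower. The 3 differences share the same sham arrays.

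Of the 3 counts against sham, that at 72 h moved most. It was 2 with the array slide as a block (Fosl1 and Egr1) and 2 after normexp background correction (Junb and Egr1). Calls over all probes at 72 h against sham fell too, from 4673 to 1724 with the slide block and to 1544 with normexp. Without sham replicate 3 or without 72 h replicate 3 the count was 3, as Junb and Atf3 fell below the 2-fold line or missed the adjusted p. All sham and 3 h arrays and 2 of the 12 h arrays lay on slide 1, while all 72 h arrays lay on slide 2 with 12 h replicate 3. With the slide as a block, the slide term thus comes only from 12 h replicate 3 set against the other 12 h arrays. Within slide 1 alone the counts were 8 at 3 h and 7 at 12 h.

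**Figure D1:**
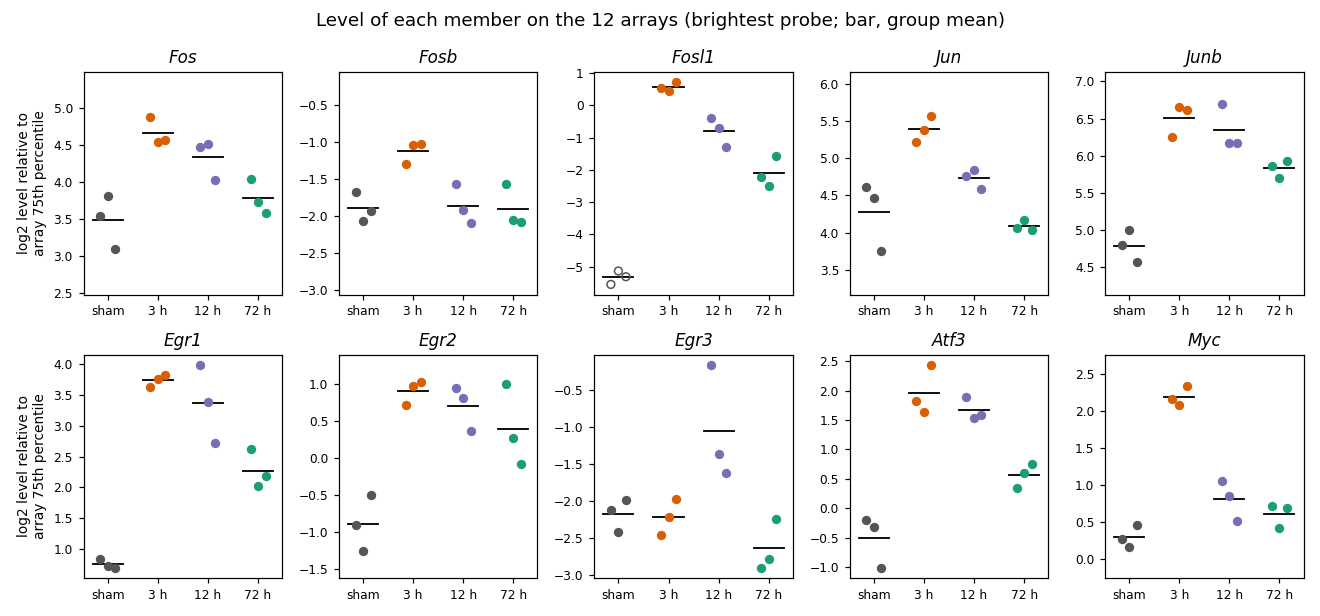
Level of each of the 10 factors on all 12 arrays. The vertical axis is log2 intensity relative to the array's 75th percentile, with its own range in each panel, points are arrays, bars are means of 3, and hollow points (Fosl1, sham) were not well above background. Egr1, Junb, Fosl1, Egr2 and Atf3 stay above their sham arrays at all 3 times, Myc and Jun stand highest at 3 h, and Egr3 is highest at 12 h.

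Among the FOS proteins, which cannot pair with each other and need a JUN partner to bind AP-1 sites, Fosl1 (FRA-1) had the widest difference from sham. Its level was −5.55, −5.13 and −5.31 on the sham arrays, all of them too dim to count as above background. At 3 h it reached 0.53, 0.43 and 0.72. The 12 h arrays read −0.39, −0.71 and −1.30 and the 72 h arrays −2.21, −2.50 and −1.57. No 2 groups overlapped, and after 3 h each time stood below the time before it. Set against the lowest level detectable on the sham arrays, Fosl1 was at least 47.8-fold, 18.6-fold and 7.59-fold higher at the successive times, with limma adjusted p of 4.01e-06, 8.55e-06 and 6.19e-05. These bounds hold for the processed intensities. When the background was instead corrected by normexp (offset 50), the fitted log2 differences were 2.56, 1.52 and 0.72, and the 72 h difference was under 2-fold. It fell by 1.36 on the log2 scale (SE 0.27) from 3 h to 12 h, with a limma adjusted p of 0.0151.

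Fos itself, the archetype of the class, was already well above background in sham ceca, at 3.54, 3.82 and 3.10. At 3 h it was 4.87, 4.54 and 4.56, above every sham array. That is a 2.25-fold difference (log2 1.17, SE 0.21, limma adjusted p = 0.00434). By 12 h its levels of 4.47, 4.51 and 4.02 were still above the sham range, with a difference of 0.85 (adjusted p = 0.0180), which is 1.80-fold and under the 2-fold line. At 72 h, at 4.04, 3.73 and 3.58, the groups overlapped (0.30, adjusted p = 0.374). The 3 h call rested on sham replicate 3, the lowest of the sham arrays: without it the difference was 0.98, and with quantile normalization 0.93. The 12 h difference passed 2-fold within slide 1, at 1.002.

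Fosb, a further FOS subunit, was −1.68, −2.06 and −1.93 in sham and −1.30, −1.04 and −1.03 at 3 h. The groups did not overlap, but the difference of 0.77 (SE 0.18, limma adjusted p = 0.0170) was 1.70-fold and not called. At 12 h and 72 h it was 0.03 and −0.01 from sham, with overlapping arrays. A second Fosb probe was well above background on 1 array only, a 3 h array at −4.29, and with both probes averaged the 3 h difference was 1.24 and called.

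The JUN proteins can pair with themselves, with FOS or with ATF partners. Jun was 4.62, 4.46 and 3.75 in sham and 5.22, 5.38 and 5.58 at 3 h, above all sham arrays. The 3 h difference was 1.11 (SE 0.20, 2.16-fold, limma adjusted p = 0.00453). The 12 h arrays read 4.76, 4.84 and 4.59, and those of 72 h read 4.06, 4.17 and 4.03. Both later groups overlapped the sham arrays, with differences of 0.45 (adjusted p = 0.155) and −0.19 (0.558). Like that of Fos, the 3 h call needed sham replicate 3, since the difference was 0.85 without it, and it was 0.85 with quantile normalization too.

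Junb, often the counterweight of JUN within AP-1, kept a difference through 72 h. Its brightest probe was 4.79, 5.002 and 4.56 in sham, then 6.25, 6.65 and 6.62 at 3 h. It was 6.69, 6.17 and 6.18 on the 12 h arrays and 5.86, 5.69 and 5.93 on the 72 h arrays. All injured ceca were above all sham ceca, and the 3 h and 12 h arrays overlapped. The differences from sham were 1.72, 1.56 and 1.04 (SE 0.18 each), or 3.30-, 2.95- and 2.06-fold, with limma adjusted p of 0.000258, 0.000294 and 0.00343. A dimmer second probe of the same transcript gave 1.97, 1.92 and 1.15, each called. Another, designed on a cDNA clone (AK044253), was not well above background on any array.

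Egr1, the zinc finger factor whose transcript is a standard readout of serum and stress signals, was 0.84, 0.73 and 0.70 in sham. It rose to 3.62, 3.76 and 3.82 at 3 h, with 12 h arrays of 3.98, 3.38 and 2.72. At 72 h it was 2.62, 2.02 and 2.18, still above every sham array. The 3 h and 12 h groups overlapped, and the 12 h arrays spread more widely (SD 0.63) than the 3 h arrays (SD 0.10). The differences of 2.98, 2.60 and 1.52 (SE 0.27 each) were 7.88-, 6.08- and 2.86-fold, with limma adjusted p of 0.00012, 0.000165 and 0.00386. Egr1 was called at each time under each of the alternatives run.

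Egr2, known for roles in myelin and in lymphocytes and macrophages, was −0.90, −1.25 and −0.50 in sham. The 3 h arrays read 0.72, 0.98 and 1.02, the 12 h arrays 0.94, 0.82 and 0.37, and the 72 h arrays 0.99, 0.26 and −0.08. All 9 injured ceca were above all sham ceca, and the 3 times overlapped with each other. The differences were 1.79, 1.59 and 1.28 (SE 0.28 each, 3.46-, 3.01- and 2.42-fold, limma adjusted p = 0.00216, 0.00314 and 0.0110). The 72 h array with the highest level, replicate 1, carried the last call, for without it the difference was 0.98. With all arrays kept, that call was also lost after normexp background correction (0.98) and with the slide as a block (1.79, limma adjusted p = 0.0931).

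Egr3, a further member of the EGR family, had another course over the times sampled. It was −2.12, −2.42 and −1.99 in sham and −2.45, −2.21 and −1.98 at 3 h, with overlapping groups. The 12 h arrays read −0.17, −1.37 and −1.62, all above the sham and 3 h arrays, and the 72 h arrays −2.90, −2.78 and −2.24. The 12 h difference from sham was 1.12 (SE 0.34, 2.17-fold, limma adjusted p = 0.0413), against −0.04 at 3 h (0.946) and −0.47 at 72 h (0.387). This call was lost in 13 of 26 alternatives, among them leaving out any of the sham or 3 h arrays, 12 h replicate 1 or 2, or 72 h replicate 2. Without 12 h replicate 1 the difference was 0.68 (adjusted p = 0.0857), and over the other 8 such fits it ran from 0.996 to 1.28, with adjusted p from 0.0506 to 0.130. With the replicate number as a block the adjusted p was 0.0678. A second Egr3 probe gave 2.02 at 12 h (adjusted p = 0.00976), 0.47 at 3 h and 0.41 at 72 h, also highest on 12 h replicate 1, and the remaining probe was not well above background on any array. From 3 h to 12 h the brightest probe differed by 1.16, with a limma adjusted p of 0.0643.

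Atf3, which is induced by many stresses and represses cytokine genes, was −0.20, −0.31 and −1.01 in sham. After cautery the levels were 1.83, 1.63 and 2.43 on the 3 h arrays, 1.90, 1.53 and 1.58 on the 12 h arrays, and 0.34, 0.60 and 0.75 on the 72 h arrays. No injured cecum overlapped a sham cecum, while 3 h and 12 h overlapped each other. The differences were 2.47, 2.17 and 1.07 (SE 0.26 each), or 5.53-, 4.51- and 2.10-fold, with limma adjusted p of 0.000236, 0.000316 and 0.0157.

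Myc, the growth regulator, was called at 3 h and not later. It was 0.27, 0.16 and 0.47 in sham and 2.16, 2.07 and 2.34 at 3 h, which is 3.70-fold (log2 1.89, SE 0.16, limma adjusted p = 7.88e-05). Later arrays read 1.05, 0.85 and 0.51 (12 h) and 0.72, 0.42 and 0.69 (72 h). The 12 h arrays lay just above the sham range, with a difference of 0.50 (adjusted p = 0.0485) that is 1.42-fold, and the 72 h arrays overlapped it (0.31, adjusted p = 0.215). A second Myc probe gave 1.78 (called), 0.77 and 0.62. On that probe the 12 h and 72 h arrays did not overlap the sham arrays (limma adjusted p = 0.00216 and 0.00820), with differences under 2-fold.

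**Figure D2:**
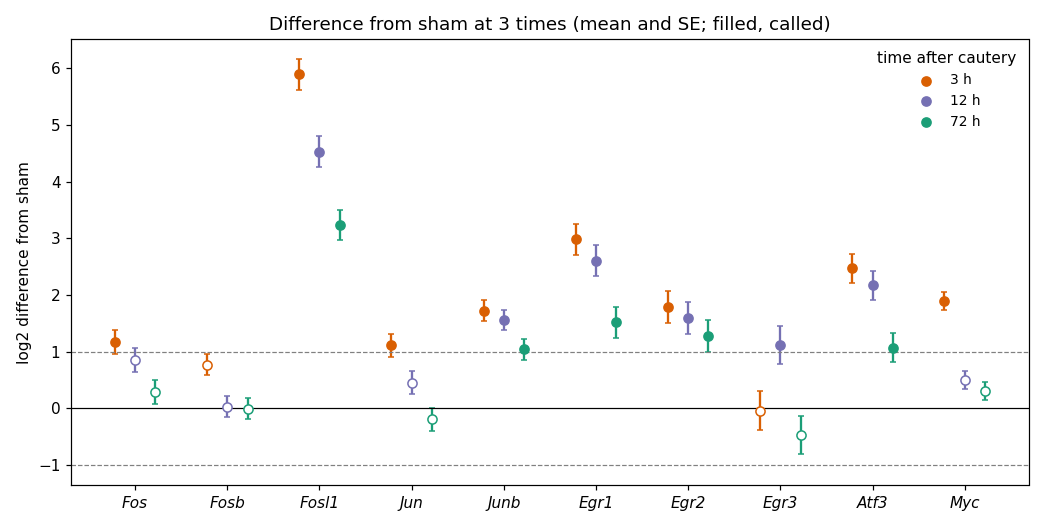
Log2 difference from sham for each factor at each time (vertical axis, limma estimate with its SE, 3 arrays a group, filled where called, dashed lines at 2-fold). Fosl1 is highest (5.89 fitted at 3 h, against sham arrays not above background), Egr1 and Atf3 follow, Fos, Jun and Myc are called at 3 h and not at 12 h or 72 h, and Egr3 is called at 12 h.

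Between 3 h and 12 h, 2 of the 10 factors were called lower and 0 higher, Fosl1 and Myc, against 1.56% of genes lower and 1.89% higher. Myc fell by 1.38 (SE 0.16, limma adjusted p = 0.00164). From 12 h to 72 h, 4 were called lower (Fosl1, Egr1, Egr3 and Atf3) and 0 higher, beside 3.19% and 4.33% of genes. With the slide as a block 0 of the 10 were called from 12 h to 72 h, in a fit that called 1750 of 56605 probes against 4008 without the block. Within slide 2, where 12 h replicate 3 was the lone 12 h array, the fit called 23 of all probes, so that its 0 calls among the 10 say nothing about them. From 3 h to 72 h, 5 were called lower (Fosl1, Jun, Egr1, Atf3 and Myc) and 0 higher, beside 5.51% and 6.19%. With the slide as a block 2 of these 5 were called, Fosl1 and Myc, in a fit that called 1622 of all probes against 6359 without the block. Junb and Egr2, called at all 3 times, were called in no comparison between times. From 3 h to 72 h Junb differed by −0.68 without overlap (limma adjusted p = 0.0180), and its second probe by −0.82 (0.0242), both under 2-fold. Egr2 differed by −0.51 over the same interval (0.177), with overlapping arrays.

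Over the 12 arrays, which share their groups and the same 75th percentile scaling, the courses of the factors were compared as a description. Pearson's r ran from 0.49 (Jun with Egr2) to 0.97 (Junb with Egr1) among the pairs without Egr3, and from 0.01 (with Fosb) to 0.39 (with Atf3) among the pairs with Egr3. Among 23521 genes well above background on at least 6 arrays, those most like Fos were Map2k3os (r = 0.97), Errfi1 (0.95) and Pxt1 (0.95). Csrnp1 (0.98), C5ar2 (0.98) and Lrrc4 (0.97) were most like Egr1. Ugcg (0.99), Maff (0.97) and Fmnl2 (0.97) came closest to Atf3, and Btc (0.98), Arl5b (0.97) and Smim3 (0.97) to Myc. No test was made of these correlations.

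Of 11 other AP-1 subunits, the remaining leucine zipper proteins of the family, 5, 4 and 3 were called higher at the successive times and 0 lower, with list medians of 0.63, 0.71 and 0.31. Jdp2, a JUN-binding repressor, differed from sham by 2.10, 3.11 and 2.96. Batf, a partner of JUN in leukocytes, differed by 2.003, 3.09 and 1.92, and the small MAF protein Maff by 3.00, 2.13 and 1.19. Batf3, a relative of Batf, was called at 3 h (1.42). Jund and Fosl2 were not called at any time, and the 3 h differences were 0.23 and 0.63.

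Of the EGR relatives 2 of 3 were measured, and 1 was called higher at each time and 0 lower. Egr4 was too dim on each sham array to count as measured and was at least 1.23-fold higher at 3 h (limma adjusted p = 0.000909). Nab2, a corepressor that binds EGR proteins, differed by 0.16 and 0.43 at 3 h and 12 h and was called at 72 h, at 1.47 (SE 0.20, limma adjusted p = 0.000955).

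The 11 measured genes of the MYC network, the MAX, MXD and related partners, had medians of −0.08, −0.17 and −0.07. Mxd3, which competes with MYC for MAX, was called lower at the early times (−1.08 at 3 h, −1.03 at 12 h, limma adjusted p = 0.0107 and 0.0113). No gene of this list was called higher at any time, beside 3.26%, 4.1% and 4.55% of all genes. A list of 11 is too short to tell such counts from those shares. Of 17 MYC target genes of ribosome production and metabolism, 4, 1 and 0 were called higher at the 3 times and 0 lower, with medians of 0.61, 0.56 and −0.07. Those at 3 h were the ribosome assembly genes Wdr43 (1.26) and Rrs1 (1.22), and the polyamine enzymes Odc1 (1.15) and Srm (1.14). Between 3 h and 72 h 6 of the 17 were called lower and 0 higher.

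The 8 upstream factors (SRF, its TCF and MRTF partners and the CREB family) had 1, 1 and 2 genes called higher and 0 lower, with medians of −0.07, 0.02 and 0.17. Crem, whose internal promoter makes an inducible repressor of cAMP-driven genes, differed by 3.21, 2.50 and 1.72 (SE 0.12 each, limma adjusted p = 1.09e-06 at 3 h). Elk3, a TCF, was called at 72 h (1.28). Srf was −0.30, −0.30 and −0.21 and not called.

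Of 29 other immediate early genes, 20, 19 and 14 were called higher at the successive times, and 0, 0 and 1 lower, with medians of 1.46, 1.48 and 0.92. The orphan nuclear receptor Nr4a1 differed by 3.30, 4.16 and 2.41, and the synaptic gene Arc by 3.43, 1.68 and 0.22. Gadd45b, a stress sensor (2.16, 3.36 and 1.70), and Ier3, an apoptosis regulator (2.75, 3.15 and 2.45), were called at each time. The gene called lower, at 72 h, was Npas4, an activity-dependent factor of neurons (−1.005, SE 0.20, limma adjusted p = 0.00687).

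Feedback inhibitors of the MAP kinase pathway were called higher in 7, 6 and 3 of 15 cases and lower in 0, with medians of 0.92, 0.60 and 0.41. Dusp1, a phosphatase of p38 and JNK, led with 3.79, 3.80 and 2.51 (SE 0.21 each). Dusp2 (1.45, 2.31 and 0.32) and Dusp5 (1.46, 2.15 and 0.82) are nuclear phosphatases of ERK, and both were called at 3 h and 12 h. Spry4, an inhibitor of receptor signalling, was called at all 3 times (1.98, 1.73 and 1.40).

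Of 12 AP-1 target genes, 8, 10 and 8 were called higher and 0 lower, with medians of 2.22, 3.50 and 2.66. Ccl2, a monocyte chemokine, differed by 5.84, 5.97 and 4.41, Ptgs2, the inducible cyclooxygenase, by 3.77, 4.96 and 3.998, and Plaur, the urokinase receptor, by 4.14, 4.83 and 3.46. Timp1, the inhibitor of matrix proteases, was 3.18, 4.37 and 6.27 above sham, with its largest difference at 72 h. Among 8 EGR1 target genes, 4, 4 and 7 were called higher and 0 lower, with medians of 1.22, 1.097 and 1.32. The matrix protein gene Thbs1 differed by 3.78, 4.59 and 3.43, the adhesion molecule Icam1 by 2.26, 2.17 and 1.31, and F3, tissue factor, by 2.16, 0.98 and 1.23. Maff, Nab2 and Mmp9 each stand in a pair of the lists used here.

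**Figure D3:**
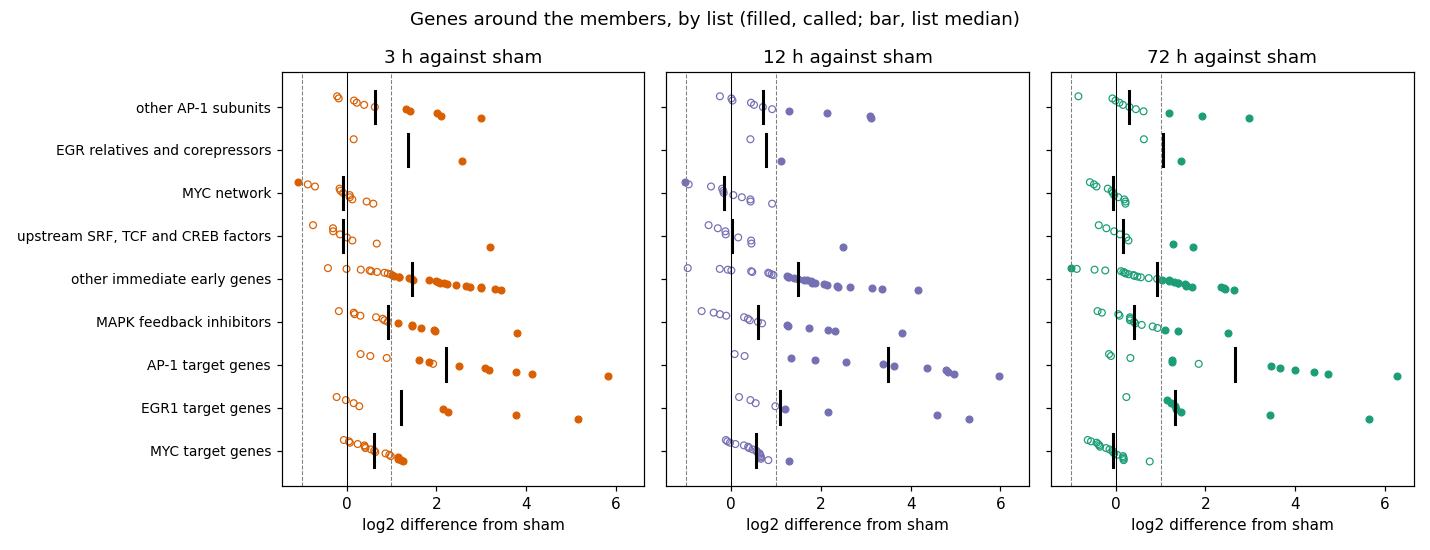
Log2 difference from sham (horizontal axis) of every measured gene of 9 lists at each time, with points filled where called, a bar at the list median and dashed lines at 2-fold. The other immediate early genes keep medians of 1.46, 1.48 and 0.92, the AP-1 target genes have their highest median at 12 h (3.50), and the MYC target genes go from a median of 0.61 at 3 h to −0.07 at 72 h.

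Markers of several cell types moved over the same hours. Of 10 neutrophil markers 7, 9 and 7 were called higher at the successive times and 0 lower, and their summed level (log2 of the sum) lay between 6.34 and 6.53 in sham. The corresponding ranges after cautery were 8.49 to 9.23, 9.69 to 9.75 and 8.46 to 9.32. Among the 10, Cxcr2 and Ngp were not well above background on any sham array and were so on all 3 h arrays. Below sham, and not called, were 1, 1 and 2 of the 10 at the successive times. Of 8 macrophage markers 0, 2 and 8 were called higher and 0 lower, with sums between 5.201 and 5.32 in sham and between 6.79 and 7.01 at 72 h. Of 7 smooth muscle markers 1, 7 and 6 were called lower and 0 higher, and their sums lay between 9.10 and 9.19 in sham and between 7.43 and 8.11 at 12 h. Of 6 fibroblast markers 0, 4 and 0 were called lower and 0, 0 and 5 higher. Of 7 mesothelial markers 2, 1 and 3 were called higher and 2, 2 and 0 lower, and 4 to 5 of them were well above background on a 3 h array, against 7 on every sham and 72 h array. The lower ones were Upk3b and Lrrn4, not well above background at 3 h or 12 h, while Pdpn was called higher at each time. The summed mesothelial level lay between 6.76 and 7.44 in sham and between 8.18 and 8.31 at 3 h, while the list median differed from sham by 0.02. Taken on unlogged levels, the sum weighs the brightest markers most, and the list holds Krt18 beside Upk3b and Lrrn4. It is therefore no measure of mesothelial content. Of 5 endothelial markers 0, 0 and 1 (Cdh5) were called higher and 0 lower. The 10 epithelial markers of the labelled cecum were well above background on every array, with 0, 1 and 3 called lower and 0 higher. Below sham were 2, 5 and 10 of them at the successive times, with medians of 0.32, 0.01 and −0.71. Their sums lay between 10.86 and 10.97 in sham, and between 11.13 and 11.28, 10.74 and 11.03, and 9.86 and 10.33 at the successive times. The part of these shifts in the levels of the 10 factors was not tested.

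**Figure D4:**
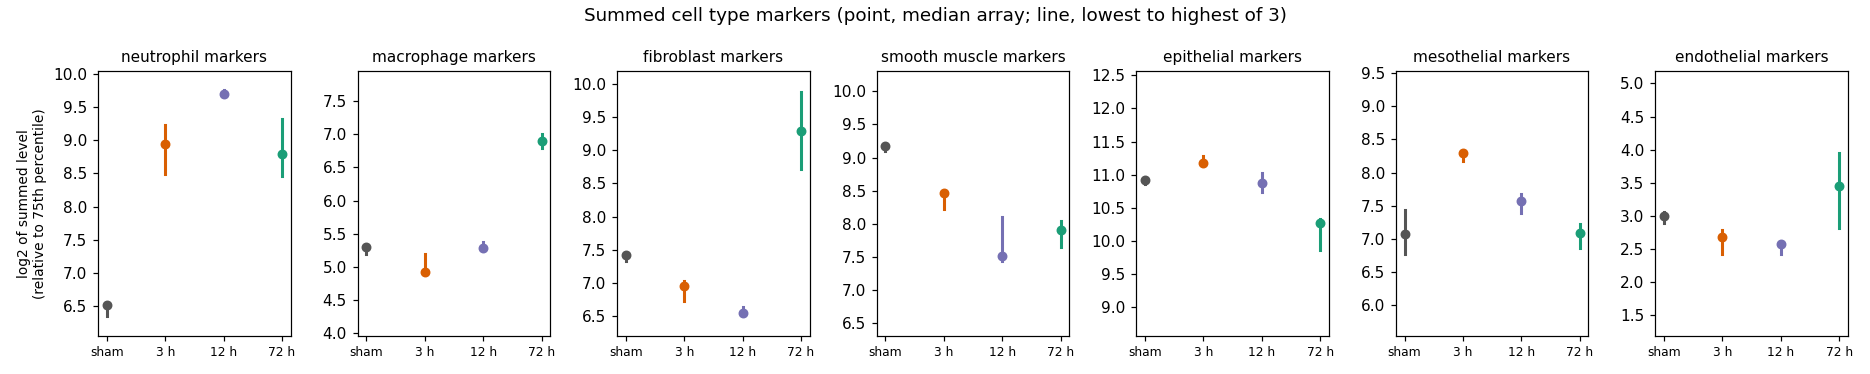
Log2 of the summed level of the markers of 7 cell types (vertical axis, 4 log2 units in each panel), with the median array as a point and a line from the lowest to the highest of 3 arrays. Neutrophil markers stand above sham at all 3 times (8.49 to 9.23 at 3 h against 6.34 to 6.53), macrophage markers at 72 h, and smooth muscle markers stay below sham after cautery.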

How the data were processed

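Total RNA of 12 mouse ceca was hybridised to Agilent 1-colour mouse arrays. The authors scanned them with Feature Extraction and deposited a processed, background-subtracted intensity per spot, and a table of log2 values normalized in GeneSpring and centred on each probe's median over the arrays. Control spots and outlier spots were left out, spots of a probe were averaged as log2 intensity, and each array's 75th percentile was subtracted. The log2 values deposited by the authors gave r = 0.999996 with these after centring on each probe's median. A model of the 4 group means, without covariates, was fitted in R 4.3.3 by the lmFit and eBayes functions of limma 3.58.1, with Benjamini-Hochberg adjustment over 56605 probes. The limits of a call were a 2-fold change and an adjusted p of 0.05. Between 60.2% and 65.2% of probes were well above background on an array, no spot was saturated, and arrays of a group correlated at 0.985 to 0.992. The median over all probes at 72 h was −0.15 relative to sham. An "at least" fold sets a dim group at its lowest detectable level. The members and lists were chosen with earlier results of these data known. Named from each list were up to 4 called genes with the largest difference from sham and any called against its list (1 such gene is not reported here), and for 4 members the 3 genes with the highest correlation among genes above background on at least 6 arrays. The fit was tested on simulated data. Precision is limited by 3 arrays a group. Alternatives were background correction, scaling, filters, blocks, probe averaging and leaving out each array. The within-slide fits were chosen after seeing the data, as were Jund, Fosl2 and Srf for naming. Nab1, Mycl1 and Emr1 of the lists were not found by name. Figures were drawn with matplotlib in Python.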

Additional observations from a re-analysis of the deposited data

Results flagged for a closer look

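The differences from sham differed between times, by a called limma contrast between those times (2-fold and adjusted p), for 6 of the 10 factors. Each of these 11 contrasts was downward. They are not separate observations, since the contrasts of a gene share the same arrays. Medians over all genes were also below 0, at −0.12 from 3 h to 12 h, −0.14 from 12 h to 72 h and −0.26 from 3 h to 72 h. From 3 h to 12 h the log2 difference was −1.36 for Fosl1 and −1.38 for Myc. From 12 h to 72 h it was −1.30 for Fosl1 (limma adjusted p = 0.00951), −1.09 for Egr1 (0.0211), −1.59 for Egr3 (0.0108) and −1.11 for Atf3 (0.0151). From 3 h to 72 h it was −2.65 for Fosl1 (0.00015), −1.30 for Jun (0.00122), −1.46 for Egr1 (0.00303), −1.40 for Atf3 (0.00276) and −1.58 for Myc (0.000145). Fos, Fosb and Junb differed by less than 2-fold over that interval, at −0.87, −0.78 and −0.68, with limma adjusted p of 0.0118, 0.0107 and 0.0180. The 3 h and 72 h arrays of these genes did not overlap. The contrasts that involve 72 h set arrays of slide 2 against arrays mostly of slide 1. With the slide as a block the 3 h to 72 h values were −1.91 for Fosl1 (0.0468), −1.10 for Jun (0.0971), −0.50 for Egr1 (0.395), −1.27 for Atf3 (0.127) and −1.14 for Myc (0.0424). The slide term of that fit comes only from 12 h replicate 3 set against the other 12 h arrays, so these values depend on a single array. Over all probes the fit called 1622 from 3 h to 72 h, against 6359 without the block. Within slide 2 the 12 h to 72 h values were −0.80 for Fosl1, −0.45 for Egr1, −1.02 for Egr3 and −1.02 for Atf3. They rest on 1 array at 12 h, and as that fit called 23 of 56605 probes its lack of calls says nothing. Groups of 3 arrays were not searched for outlying arrays.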

How the results depend on the processing

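The number of factors called kept within 1.5 times its value under every setting not named here. At 72 h against sham, 5 became 2 with normexp background correction and 2 with the slide as a block. With that block Egr2, Junb and Atf3 missed the adjusted p while their fitted differences were larger than without it. From 12 h to 72 h, 4 became 0 with normexp, 0 with the slide as a block, 0 within slide 2 and 1 with only the 2 groups in the fit. From 3 h to 72 h, 5 became 2 with the slide as a block and 8 with no fold change threshold. Leaving out each array gave 6 to 8 calls at 3 h, 5 to 7 at 12 h and 3 to 5 at 72 h against sham, 2 to 3 from 3 h to 12 h, 2 to 4 from 12 h to 72 h (2 without 12 h replicate 1) and 5 to 5 from 3 h to 72 h. Deviations from group means correlated from −0.16 to 0.09 over 18 pairs of same-numbered arrays and from −0.11 to 0.14 over 36 other pairs. No pairing by replicate number was seen, but with 3 arrays a group these values cannot exclude matched sets. With the replicate number as a block, the count at 12 h against sham was 5 in place of 6, as Egr3 missed the adjusted p (0.0678), and no other count or call changed. The Egr3 call at 12 h was lost in 13 of 26 alternatives, 9 of them leaving out an array. Signs turned only for differences that were not called: Fosb at 12 h with the percentile over detected probes (−0.0293) and normexp (−0.0212), Fosb at 72 h with quantile normalization (0.0639), the percentile over detected probes (0.00625), the slide block (0.33) and the mean of all probes (0.18), Jun at 72 h with the slide block (0.0187), Egr3 at 3 h with quantile normalization (0.11), normexp (0.0589) and the mean of all probes (0.12), and Egr3 at 72 h with the slide block (0.39) and the mean of all probes (0.0775). Leaving out each array moved Fosb at 12 h between −0.114 and 0.142, Fosb at 72 h between −0.172 and 0.0987 and Egr3 at 3 h between −0.164 and 0.0792. Over all probes, normexp called 1010 at 3 h against sham in place of 4148, and 1544 at 72 h in place of 4673. From 12 h to 72 h it called 1341 in place of 4008. The slide block called 1724 at 72 h against sham. The cause of these changes was not tested. The number of arrays and, for Fosl1 and the dimmer Fosb and Egr3 probes, signal over background limit the precision.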
